A study of Mus musculus with 10 samples.

Results

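A set of 10 genes of the BCL2 family was followed in sorted fetal oocytes: the pro-survival genes Bcl2, Bcl2l1 and Mcl1, the effector genes Bax, Bak1 and Bok, and the BH3-only genes Bid, Bad, Bcl2l11 and Bmf. They were taken by gene symbol, and all 10 were found among the 55536 genes of the count table. RNA was sequenced from oocytes of E16.5 mouse ovaries, late in fetal life, in 5 Taf4b-deficient and 5 Taf4b-heterozygous libraries. TFIID, the complex that recognises core promoters, contains TAF4b in gonads, and the comparison asks which oocyte transcripts depend on this subunit. All embryos were of the labelled strain C57BL/6, came from parents homozygous for an Oct4-EGFP transgene, which makes germ cells fluorescent, and carried at least 1 mutant Taf4b allele, so that no wild-type oocytes serve as controls. Cells were released with trypsin and sorted by green fluorescence after cells that took up propidium iodide had been discarded, so the libraries describe oocytes whose membranes were intact when sorted. The labels give 3 litter dates but not whether each library is another embryo, and the p-values therefore reflect variation between libraries, some of which may be technical.

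The BCL2 family decides whether a cell opens its outer mitochondrial membrane, the step that releases cytochrome c and starts the caspases. Pro-survival members hold the effectors BAX and BAK in check, and BH3-only proteins, named for the single short helix that they share with the rest of the family, either block the pro-survival proteins or activate the effectors. Many mouse oocytes are lost during fetal life and around birth, and loss of Bax is known to leave more oocytes in the mouse ovary.

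The feature that ties these genes together is the BH3 helix, and the bases that encode its core are shown for all 10 members. Only these known members were searched, so a match does not by itself place a gene in the family. A script searched the GENCODE vM21 coding sequence of the principal transcript of each gene (GRCm38) for a leucine codon followed, with 4 codons between, by an aspartate codon, with the small or hydrophobic residues of the helix at fixed places around them, and found exactly 1 match in each. The 42 bases below run 5′ to 3′ on the coding strand, and the capitals mark the leucine and the aspartate codon.
Bcl2: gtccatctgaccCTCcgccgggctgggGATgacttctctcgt
Bcl2l1: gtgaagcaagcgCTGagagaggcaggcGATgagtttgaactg
Mcl1: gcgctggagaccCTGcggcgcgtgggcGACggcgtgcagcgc
Bax: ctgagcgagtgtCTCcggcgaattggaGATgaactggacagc
Bak1: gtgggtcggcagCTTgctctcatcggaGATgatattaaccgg
Bok: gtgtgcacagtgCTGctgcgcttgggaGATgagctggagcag
Bid: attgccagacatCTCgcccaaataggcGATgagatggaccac
Bad: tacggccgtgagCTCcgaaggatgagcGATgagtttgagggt
Bcl2l11: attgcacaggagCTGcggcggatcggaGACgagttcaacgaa
Bmf: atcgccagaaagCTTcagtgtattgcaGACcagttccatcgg
The codon just before the aspartate encodes glycine in 8 of the 10 genes, serine in Bad and alanine in Bmf. Across the 45 pairs of genes, 15 to 24 of the 42 bases were identical, and the closest pairs were Bax with Bok, Bak1 with Bid and Bcl2l11 with Bmf. The stretch lies in exon 1 of Bcl2 (chr1:106712572-106712613, minus strand) and of Mcl1 (chr3:95659424-95659465, plus strand), in exon 3 of Bax (chr7:45465994-45466035, minus strand) and in exon 2 of Bcl2l1 (chr2:152829694-152829735, minus strand), while in Bok it crosses from exon 2 to exon 3. The helix is encoded in all annotated complete coding forms of these genes except in 1 of the 4 forms of Bcl2l11, and gene-level values do not tell such forms apart.

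Because TFIID acts at promoters, the 250 bases upstream of the annotated start are shown for the pro-survival genes Mcl1 and Bcl2 and the effector gene Bax, the members whose levels ranged most widely between libraries. They are RefSeq sequences of GRCm38.p6, 5′ to 3′ on the gene's strand, from chr3:95658471-95658720 (plus strand) for Mcl1, chr7:45466899-45467148 (minus strand) for Bax and chr1:106714291-106714540 (minus strand) for Bcl2. The capitals mark the GC box GGGCGG, which SP-family factors bind, searched on both strands together with the TATA box TATAAA and the CCAAT box CCAAT.
Mcl1: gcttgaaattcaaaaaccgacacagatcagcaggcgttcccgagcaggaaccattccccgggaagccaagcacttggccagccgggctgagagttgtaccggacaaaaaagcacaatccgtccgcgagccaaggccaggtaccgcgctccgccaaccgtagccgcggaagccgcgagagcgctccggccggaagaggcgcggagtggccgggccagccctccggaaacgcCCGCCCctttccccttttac
Bax: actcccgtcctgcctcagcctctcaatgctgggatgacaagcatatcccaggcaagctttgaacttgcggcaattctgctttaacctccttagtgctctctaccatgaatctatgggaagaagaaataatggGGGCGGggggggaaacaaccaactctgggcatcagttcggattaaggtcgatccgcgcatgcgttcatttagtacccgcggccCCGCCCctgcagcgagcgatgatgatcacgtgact
Bcl2: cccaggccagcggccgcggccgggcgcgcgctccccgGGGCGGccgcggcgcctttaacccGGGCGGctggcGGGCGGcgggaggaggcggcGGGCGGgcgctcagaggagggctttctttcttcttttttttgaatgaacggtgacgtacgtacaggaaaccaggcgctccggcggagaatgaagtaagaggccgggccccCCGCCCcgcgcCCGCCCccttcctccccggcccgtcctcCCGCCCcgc
The GC box occurred 1 time in the Mcl1 window, 2 times in the Bax window and 7 times in the Bcl2 window, and none of the 3 windows held TATAAA or CCAAT. Of all 32851 promoter windows of this length, 32.7% held GGGCGG, 33.8% held CCAAT and 12.4% held TATAAA. All 10 members had a window in the table, 16 windows in all, of which 8 held GGGCGG, 5 held CCAAT and 0 held TATAAA. G and C made up 74.8% of the Bcl2 window, 64.4% of the Mcl1 window and 54.0% of the Bax window, against a median of 52.4% over all windows.

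Library totals ran from 16707216 to 26983565 counts. Taf4b itself was at 80.7, 81.7, 80.2, 73.7 and 58.2 CPM (counts scaled to a common library size, on library sizes scaled by TMM, the trimmed mean of M-values) in deficient 1 to 5, against 271, 290, 142, 65.7 and 101 CPM in the libraries labelled heterozygous 1 to 5. The fourth heterozygous library lay within the deficient range in CPM and is called the library labelled heterozygous 4. In TPM (a length-scaled relative abundance) its Taf4b was 19.6, above every deficient library, at 15.6 to 18.6. For Taf4b edgeR gave -1.22 ± 0.35 on the log2 scale (SE, adjusted p = 0.155). The germ cell markers of a list of 6 (Ddx4, Dazl, Mael, Sycp3, Dppa3 and Taf4b) were present in every library, with a sum of 3174 to 5022 CPM in deficient and 3888 to 5768 CPM in heterozygous libraries. That sum includes Taf4b, the mutated gene, at the CPM given above, so it is not independent of genotype. A list of 8 erythroid genes stood apart in deficient 5, the library labelled heterozygous 4 and heterozygous 5, at 1606, 719 and 2084 CPM, against 65.0 to 221.8 CPM in the other 7. In those 3 libraries the 8 pregranulosa markers summed to 92.6, 93.1 and 82.6 CPM, against 28.5 to 104.8 CPM in the others. Macrophage markers summed to 68.6 to 214.7 CPM in deficient and 141.6 to 262.1 CPM in heterozygous libraries, endothelial markers to 16.6 to 68.9 and 17.5 to 92.4 CPM, and stromal markers to 17.4 to 101.8 and 15.5 to 67.1 CPM. No marker of any list was at 0 in all libraries, and in bulk RNA fewer cells of a type and less RNA per cell cannot be told apart.

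The members spanned a wide range of levels, which were compared per length as TPM. Over all 10 libraries Bax averaged 46.5 TPM, Mcl1 27.0 TPM, Bcl2l1 19.9 TPM and Bid 14.4 TPM, followed by Bad at 4.71 TPM. Below these came Bcl2l11 at 1.41 TPM, Bok at 1.01 TPM, Bcl2 at 0.835 TPM, Bmf at 0.632 TPM and Bak1 at 0.0375 TPM. The place of neighbours in this order was not always the same from library to library. Bax was above Mcl1 in 5 of 10 libraries, Mcl1 above Bcl2l1 in 8, Bcl2l1 above Bid in 9, Bcl2l11 above Bok in 7, Bok above Bcl2 in 8 and Bcl2 above Bmf in 5. Bid was above Bad, Bad above Bcl2l11 and Bmf above Bak1 in all 10 libraries.

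**Figure D1:**
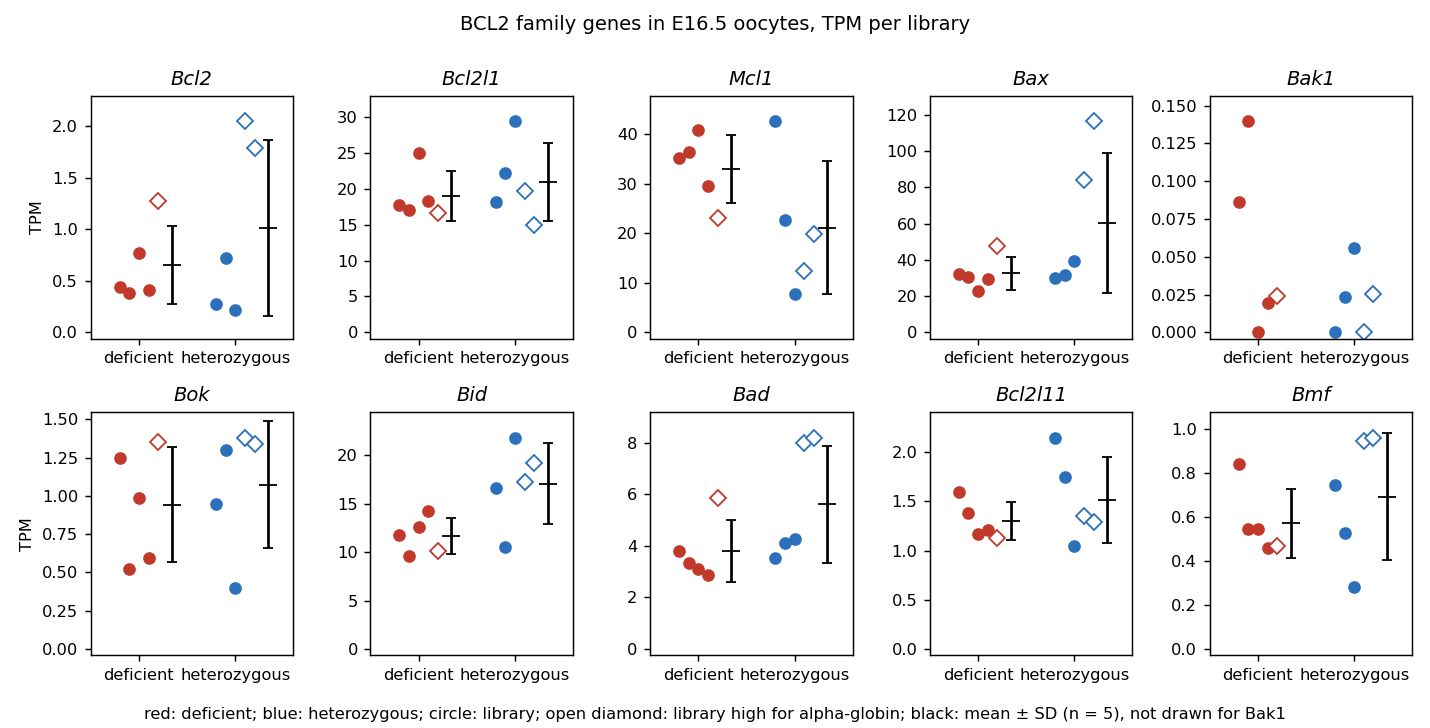
TPM of each BCL2 family gene in the 5 deficient (left, red) and 5 heterozygous (right, blue) libraries, 1 point per library, with open diamonds for the 3 libraries high for alpha-globin and black marks for the mean ± SD (not drawn for Bak1). The vertical scale is linear and differs between panels. Bax, Bcl2 and Bad have their highest points in heterozygous libraries drawn as diamonds, and the genotypes overlap in every panel.

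Between genotypes, none of the 9 members that passed the expression filter was called, and this was also the case for all genes. By edgeR's quasi-likelihood test over 19244 genes, 0% had a Benjamini-Hochberg adjusted p under 0.05, and 16.6% had an unadjusted p under 0.05, among them 1 of the 9 members, Bax. By direction, 7.45% of all genes were higher and 9.13% lower in deficient libraries at that unadjusted p, with 0 and 1 members. The log2 fold change, deficient over heterozygous, was positive for Mcl1 alone and negative for the other 8 members, while 48.9% of all genes tested were positive. The median over the 9 was -0.13, against -0.015 over all genes tested. In some alternative fits Bcl2, Bcl2l1, Bok, Bcl2l11 and Bmf turned positive. Without the library labelled heterozygous 4, edgeR called 0 members and gave log2 fold changes of 0.55 for Mcl1, -0.65 for Bax, -0.51 for Bid and -0.35 for Bad. The genotypes overlapped for every tested member and did not overlap for 3.53% of all genes. DESeq2 called 3.35% of the genes it tested and limma voom with quality weights 2.65%, and neither called a member. Nor was a member called by edgeR without a low-count filter (0.561% of genes called), with the replicate block (0.0052%), with a 3-level grouping of libraries that rebuilds the deposited fold changes as a covariate (0.54%) or without heterozygous 2 (0.00505%). Of the genes with an adjusted p in the authors' deposited table, 6.55% were under 0.05 and none of the 9 members was, while 3 members, Mcl1, Bax and Bid, had an unadjusted p under 0.05 in that table, against 14.4% of its genes.

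**Figure D2:**
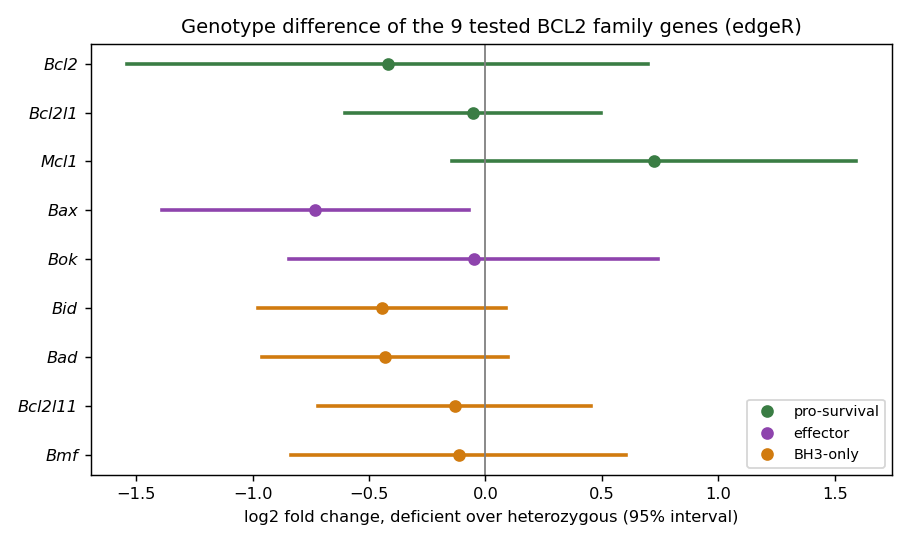
Log2 fold change of the 9 tested members, deficient over heterozygous (points), with the 95% interval of edgeR's quasi-likelihood fit (lines), coloured by role. The interval of Bax, from -1.39 to -0.07, is the only one that does not hold 0, and the point of Mcl1 at 0.72 is the only one above 0.

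Mcl1 (chromosome 3, 95658788 to 95663176, plus strand) encodes a short-lived pro-survival protein and was the most abundant pro-survival transcript on average. It was at 35.1, 36.4, 40.7, 29.5 and 23.1 TPM in deficient 1 to 5, against 42.6, 22.6, 7.82, 12.5 and 19.9 TPM in heterozygous 1, 2 and 3, the library labelled heterozygous 4, and heterozygous 5. Heterozygous 1 was the highest of all libraries, and in TPM the other 4 heterozygous libraries were below every deficient library. In CPM deficient 5, at 58.7, was below heterozygous 2, at 62.0. The means were 33.0 ± 6.83 TPM in deficient and 21.1 ± 13.4 TPM in heterozygous libraries (SD, n = 5 each). From the counts, edgeR gave a log2 fold change of 0.72 ± 0.40 (SE, 95% interval -0.14 to 1.59, adjusted p = 0.380). Leaving out heterozygous 1 gave 1.28 (edgeR adjusted p = 0.0463) in a fit that called 3.07% of all genes, and this was the only alternative in which a member was called. For the 3 litter dates of the labels, earliest first, Mcl1 differed on the log2 scale by 0.19, 2.15 and 0.60, each from 1 or 2 libraries per genotype. Within the 3 levels of the grouping behind the deposited table the differences were -0.34, 1.49 and 0.64, and without the second litter date the log2 fold change was 0.07. In the authors' deposited table Mcl1 stood at 0.61 on the log2 scale (DESeq2 adjusted p = 0.229).

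Bcl2l1, which encodes the pro-survival protein BCL-XL (chromosome 2, 152780668 to 152831728, minus strand), varied less than Mcl1. It ran from 16.6 to 25.0 TPM in deficient libraries, with a median of 17.7 TPM, and from 15.0 to 29.4 TPM in heterozygous libraries, with a median of 19.6 TPM. Its log2 fold change by edgeR was -0.05 ± 0.25 (SE, 95% interval -0.60 to 0.50, adjusted p = 0.939). The highest value was in heterozygous 3, the library with the lowest Mcl1. In that library Bcl2l1 made up 78.5% of the summed pro-survival TPM and Mcl1 20.9%.

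Bcl2, the founding member of the family (chromosome 1, 106538178 to 106714274, minus strand), was rare in these oocytes. It was at 0.437, 0.386, 0.772, 0.414 and 1.27 TPM in deficient 1 to 5, against 0.273, 0.727, 0.221, 2.05 and 1.79 TPM in heterozygous 1, 2 and 3, the library labelled heterozygous 4, and heterozygous 5. The 3 libraries high for alpha-globin were the 3 highest for Bcl2, in both genotypes. For Bcl2 edgeR gave -0.42 ± 0.52 on the log2 scale (SE, 95% interval -1.54 to 0.70, adjusted p = 0.712), which turned to 0.40 without those 3 libraries, where the means were 0.502 ± 0.181 TPM in 4 deficient and 0.407 ± 0.278 TPM in 3 heterozygous libraries (SD). The summed erythroid markers, given above, were also highest in these 3 libraries, though in another order. Their part in the level of Bcl2 was not tested.

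Bax (chromosome 7, 45461697 to 45466898, minus strand) encodes the effector that forms pores in the outer mitochondrial membrane, and it was the most abundant of the 10 transcripts on average. It was at 32.3, 30.6, 22.7, 29.5 and 47.7 TPM in deficient 1 to 5, against 30.1, 31.5, 39.4, 84.3 and 116.6 TPM in heterozygous 1, 2 and 3, the library labelled heterozygous 4, and heterozygous 5. The last pair of these libraries was above the others of its genotype, and deficient 5 was the highest of its own. The means were 32.5 ± 9.21 TPM in deficient and 60.4 ± 38.5 TPM in heterozygous libraries (SD, n = 5 each). In edgeR, Bax stood at -0.73 ± 0.31 (log2 fold change, SE; 95% interval -1.39 to -0.07, unadjusted p = 0.0328, adjusted p = 0.261). Without the 3 libraries high for alpha-globin it was -0.21 and the means were 28.8 ± 4.2 TPM in 4 deficient and 33.7 ± 5.03 TPM in 3 heterozygous libraries (SD). By litter date, earliest first, Bax differed by 0.08, -0.94 and -1.42 on the log2 scale, each from 1 or 2 libraries per genotype. The library labelled heterozygous 4 is of the second date, and heterozygous 5 is the only heterozygous library of the third. Within the 3 levels of the grouping behind the deposited table the differences were -0.03, -0.34 and -0.97. Leaving out heterozygous 5 alone gave -0.40. In TPM the 3 libraries with the highest erythroid sums were also the highest for Bax, though in another order. The part of the erythroid markers in the level of Bax was not tested. The authors' deposited table lists -0.46 for Bax (DESeq2 adjusted p = 0.205).

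Bak1, the gene of BAK, the effector closest to BAX in function, was barely detected. It had 4, 5, 0, 1 and 1 counts in deficient 1 to 5, against 0, 1, 3, 0 and 1 counts in the libraries labelled heterozygous 1 to 5. It was the single member that did not pass the expression filter. A count of 0 allows up to 0.140 CPM in deficient 3, 0.144 CPM in heterozygous 1 and 0.142 CPM in the library labelled heterozygous 4, a limit of 3 counts that covers counting error only. No fold change is given for Bak1.

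Bok, a BAX- and BAK-like effector that is kept low by protein turnover in other cells, was also rare. It ran from 0.526 to 1.35 TPM in deficient libraries, with a median of 0.985 TPM, and from 0.399 to 1.38 TPM in heterozygous libraries, with a median of 1.3 TPM. These values rest on 14 to 43 counts in deficient and 16 to 41 counts in heterozygous libraries, and edgeR gave -0.05 ± 0.37 on the log2 scale (SE, 95% interval -0.84 to 0.74). Bax made up 97.0 ± 1.00% of the summed effector TPM in deficient and 97.8 ± 1.28% in heterozygous libraries (SD, n = 5 each).

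Among the 4 BH3-only members, Bid, whose protein is cut by caspase 8 and links death receptors to mitochondria, was the most abundant. It was at 11.7, 9.59, 12.6, 14.2 and 10.1 TPM in deficient 1 to 5, against 16.6, 10.5, 21.8, 17.2 and 19.2 TPM in heterozygous 1, 2 and 3, the library labelled heterozygous 4, and heterozygous 5. In TPM all heterozygous libraries but heterozygous 2 were above every deficient library, while in CPM deficient 4, at 48.0, was above the library labelled heterozygous 4, at 41.2. The means were 11.7 ± 1.89 TPM in deficient and 17.1 ± 4.2 TPM in heterozygous libraries (SD, n = 5 each). On the log2 scale Bid differed by -0.45 ± 0.25 (SE, 95% interval -0.98 to 0.09, edgeR adjusted p = 0.380). This value was negative in all 24 alternative fits, from -0.59 to -0.24, though these fits share libraries. Within the litter dates the difference was -0.16, -0.63 and -0.47. Within the 3 levels of the grouping behind the deposited table it was -0.73, -0.06 and -0.76, each from 1 or 2 libraries per genotype.

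Bad, a BH3-only gene whose protein is held inactive by phosphorylation under growth factor signals, followed the pattern of Bax. It was at 3.81, 3.35, 3.11, 2.87 and 5.84 TPM in deficient 1 to 5, against 3.52, 4.12, 4.27, 7.97 and 8.19 TPM in heterozygous 1, 2 and 3, the library labelled heterozygous 4, and heterozygous 5. The 3 libraries high for alpha-globin were again the highest. The fit gave Bad a log2 fold change of -0.43 ± 0.24 (SE, 95% interval -0.96 to 0.10, edgeR adjusted p = 0.389), and one of -0.25 without those 3 libraries.

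Bcl2l11, which encodes BIM, and Bmf, both induced by loss of survival signals in other cells, were the rarest transcripts among the 4 BH3-only members. Bcl2l11 ran from 1.13 to 1.6 TPM in deficient libraries, with a median of 1.21 TPM, and from 1.04 to 2.15 TPM in heterozygous libraries, with a median of 1.35 TPM. Its log2 fold change was -0.13 ± 0.27 (SE) and its 95% interval ran from -0.72 to 0.46. Bmf ran from 0.459 to 0.841 TPM in deficient libraries, with a median of 0.544 TPM, and from 0.280 to 0.960 TPM in heterozygous libraries, with a median of 0.746 TPM. Its log2 fold change was -0.12 ± 0.33 (SE) and its 95% interval ran from -0.84 to 0.60. For both genes the genotype difference was within the spread between libraries.

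Sums by role are given as a description, without a test. The 3 pro-survival genes summed to 52.6 ± 9.35 TPM in deficient and 43.0 ± 11 TPM in heterozygous libraries, the 3 effector genes to 33.5 ± 9.42 and 61.5 ± 38.7 TPM, and the 4 BH3-only genes to 17.3 ± 1.47 and 24.9 ± 5.08 TPM (SD, n = 5 each). The highest effector sums, 49.1 TPM in deficient 5, 85.6 TPM in the library labelled heterozygous 4 and 118.0 TPM in heterozygous 5, were those of the 3 libraries high for alpha-globin. Without these the effector sum averaged 29.7 ± 4.24 TPM in 4 deficient and 34.6 ± 4.67 TPM in 3 heterozygous libraries, and the BH3-only sum 17.3 ± 1.69 and 22.4 ± 5.28 TPM (SD). The BH3-only sum lay between 14.9 and 18.8 TPM in deficient and between 16.9 and 29.7 TPM in heterozygous libraries, where only heterozygous 2 fell within the deficient range. This sum covers the 4 members only and leaves out other BH3-only genes. Among these, Pmaip1 was at 3.23 ± 1.74 TPM in deficient and 9.87 ± 3.45 TPM in heterozygous libraries (SD, n = 5 each). Bbc3 and Bik, also left out, had positive log2 fold changes by edgeR, 0.19 ± 0.29 and 0.21 ± 0.50 (SE). Hrk did not pass the filter. The ratio of effector to pro-survival TPM was 0.631, 0.581, 0.356, 0.623 and 1.20 in deficient 1 to 5, against 0.508, 0.721, 1.06, 2.51 and 3.22 in heterozygous 1, 2 and 3, the library labelled heterozygous 4, and heterozygous 5. Effector transcripts outnumbered pro-survival transcripts in deficient 5 and in the last 3 libraries labelled heterozygous, among which heterozygous 3 had the lowest Mcl1 of all libraries. The ratio of Bax to Bcl2, a pair often quoted together, was 58.2 ± 23.0 in deficient and 87.7 ± 58.0 in heterozygous libraries (SD, n = 5 each), with ranges of 29.4 to 79.3 and 41.1 to 178.8. Mcl1 made up 62.4 ± 4.49% of pro-survival TPM in deficient and 46.2 ± 18.5% in heterozygous libraries.

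**Figure D3:**
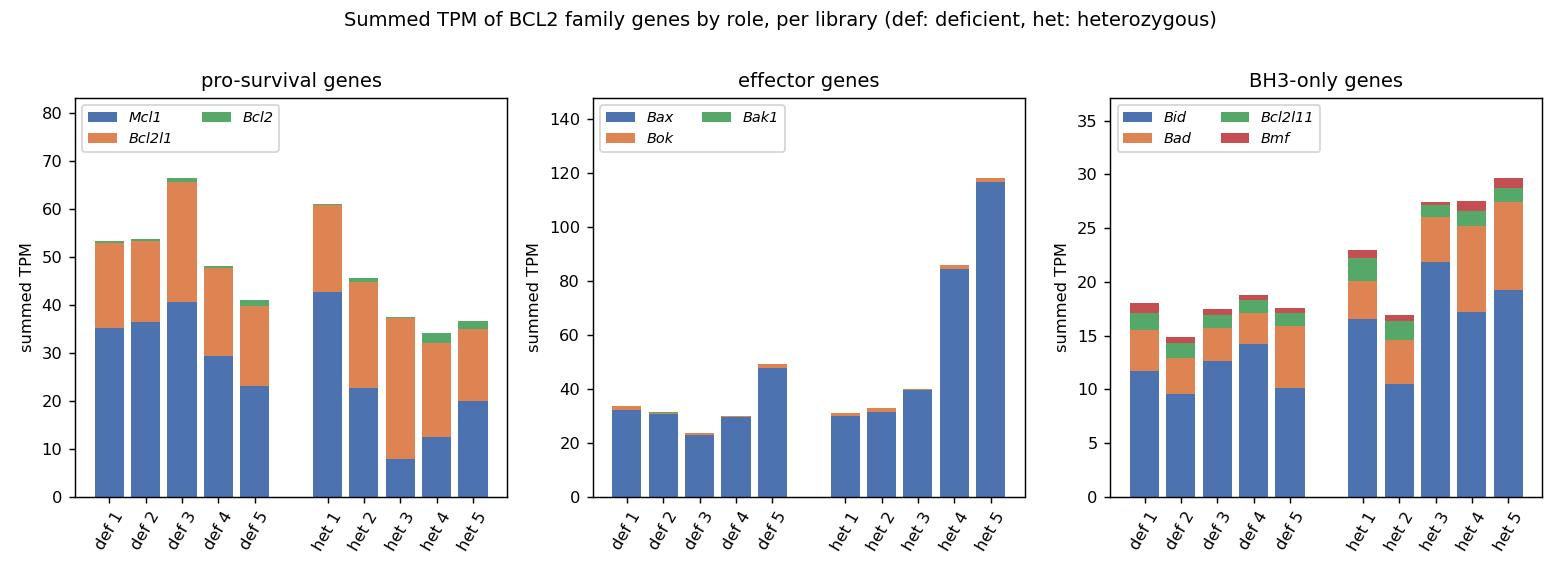
Summed TPM of the pro-survival, effector and BH3-only genes in each library, deficient (def) to the left of heterozygous (het), with each gene as a stacked part of the bar. Bax fills nearly the whole effector bar, which reaches 118.0 TPM in heterozygous 5, and the Mcl1 part of the pro-survival bar is smallest in heterozygous 3.

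In log2 CPM, deficient libraries lay closer together than heterozygous libraries for each tested member. The SD of log2 CPM was smaller in deficient and larger in heterozygous libraries in 9 of 9 members, and in 76.3% of all genes tested. For Bcl2 the SD was 0.63 in deficient and 1.24 in heterozygous libraries, for Mcl1 0.43 and 0.97, and for Bax 0.27 and 0.72. In CPM without logarithm the SD of Bok was 0.505 in deficient and 0.487 in heterozygous libraries. The libraries high for alpha-globin are deficient 5, the library labelled heterozygous 4 and heterozygous 5, and their part in these spreads was not tested. On the CPM scale all 3 libraries high for alpha-globin were above the other 7 for Bcl2 and Bad (8.69% of all genes) and below them for Bcl2l1 and Bcl2l11 (11.7% of all genes). On the TPM scale they were above the other 7 for Bcl2, Bad, Bax and Bok (18.5% of all genes) and below them for 0 of the 9 members (5.06% of all genes), so the place of Bax and Bok differed between scales. Bax in deficient 5 was at 50.8 CPM, below heterozygous 3 at 53.4 CPM.

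The genes most like the 2 members with the largest spread were sought by the root mean square difference of their centred log2 CPM over the 10 libraries, among 14083 candidates. For Bcl2 these were Lrfn1 at 0.19, Cdkn1b at 0.22 and Irf2bpl at 0.22, against a median of 0.98 for all candidates and an SD of 0.93 for Bcl2 itself. For Mcl1 they were Lrp6 at 0.17, Hdgfl3 at 0.17 and Hnrnpd at 0.19, against a median of 0.92 and an SD of 0.87. The named genes were picked as the nearest of all candidates, so lying below the median follows from the choice.

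Of 64 further genes of the cell death pathway in 7 lists, 57 were tested and none was called by edgeR, while 8, or 14.0%, had an unadjusted p under 0.05, against 16.6% of all genes tested. Among 10 tested other BCL2 family genes, 6 had positive and 4 negative log2 fold changes, with a median of 0.06. Pmaip1, the gene of the BH3-only protein NOXA, which binds MCL1, was at 5.48, 8.83, 6.56, 4.47 and 12.6 CPM in deficient 1 to 5, against 10.5, 29.3, 27.4, 21.1 and 21.0 CPM in the libraries labelled heterozygous 1 to 5. Every deficient library but deficient 5 was below every heterozygous library. Pmaip1 (66458533 to 66465565) and Taf4b (14783245 to 14900359) both lie on chromosome 18, and whether this bears on the difference was not tested. The log2 fold change of Pmaip1 by edgeR was -1.53 ± 0.33 (SE, adjusted p = 0.116). It was called by DESeq2, limma voom with quality weights, edgeR without a low-count filter and edgeR without heterozygous 1 (adjusted p from 0.00218 to 0.035). The pro-survival gene Bcl2l2, named after its values were seen, stood at 1.02 ± 0.34 on the log2 scale (SE, edgeR adjusted p = 0.187). Bnip3l, a mitophagy receptor and the most abundant of this list, was at 148 ± 30.0 CPM in deficient and 174 ± 58.4 CPM in heterozygous libraries (SD, n = 5 each).

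Downstream of the mitochondria, 2 of 9 apoptosome and caspase genes had positive and 7 negative log2 fold changes, with a median of -0.21, and none had an unadjusted p under 0.05. Cycs, the gene of cytochrome c, was at 124 ± 18.7 CPM in deficient and 162 ± 29.4 CPM in heterozygous libraries (SD, n = 5 each). Of 8 inhibitors of apoptosis and their antagonists, 3 were positive and 5 negative, with a median of -0.03. Birc6, a giant inhibitor of apoptosis with ubiquitin-conjugating activity, was at 154 ± 30.5 CPM in deficient and 93.3 ± 16.4 CPM in heterozygous libraries, above every heterozygous library in 4 of 5 deficient libraries, a log2 difference of 0.72 ± 0.20 (SE, edgeR adjusted p = 0.150). DESeq2 and limma voom called Birc6, with adjusted p of 0.0412 and 0.0466. Birc5, the gene of survivin, was at 192 ± 29.1 and 196 ± 30.3 CPM in deficient and heterozygous libraries. The 7 tested death receptor genes had a median of -0.02, with Ripk1 at 0.16 ± 0.26 and Tnfrsf21 at -0.35 ± 0.28 (SE), and Fas and Fasl did not pass the filter. The 8 mitochondrial partners of BAX and BAK had a median of 0.04, with Vdac3 at 0.07 ± 0.27 and Fis1 at 0.34 ± 0.37 (SE).

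Genes that act on the proteins of Mcl1, Bad and Bcl2l11 were balanced in sign, 6 positive and 6 negative of 12, around a median of 0.01. Of these, 33.3% had an unadjusted p under 0.05 by edgeR, 3 higher and 1 lower in deficient libraries, against 16.6% of all genes tested. Huwe1, a ubiquitin ligase of MCL1, was at 523, 595, 701, 553 and 418 CPM in deficient 1 to 5, against 356, 461, 321, 334 and 286 CPM in the libraries labelled heterozygous 1 to 5. Deficient 1 to 4 were above every heterozygous library, and edgeR gave Huwe1 0.67 ± 0.20 on the log2 scale (SE, adjusted p = 0.165). Usp9x, a deubiquitinase of MCL1, and the ligase subunit gene Fbxw7, named after their values were seen, stood at 0.79 ± 0.33 and 0.67 ± 0.27 on the same scale (SE), and Btrc, chosen likewise, at -0.60 ± 0.20. Dynll1, whose dynein light chain binds BIM, was at 821 ± 153 CPM in deficient and 857 ± 200 CPM in heterozygous libraries. In the p53 family, Trp53 was at 13.1, 13.1, 13.3, 12.7 and 23.8 CPM in deficient 1 to 5, against 12.5, 15.4, 13.8, 29.6 and 30.2 CPM in the libraries labelled heterozygous 1 to 5, and was highest in the 3 libraries high for alpha-globin. Trp63, whose p63 protein acts in the DNA damage checkpoint of mouse oocytes, was at 0.680 ± 0.336 CPM in deficient and 2.79 ± 2.51 CPM in heterozygous libraries, which edgeR put at -2.02 ± 0.61 on the log2 scale (SE, adjusted p = 0.162). DESeq2 and edgeR without heterozygous 1 called Trp63, and its log2 fold change was -1.21 without the 3 libraries high for alpha-globin and -1.34 without heterozygous 5, which at 7.05 CPM was the highest library.

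**Figure D4:**
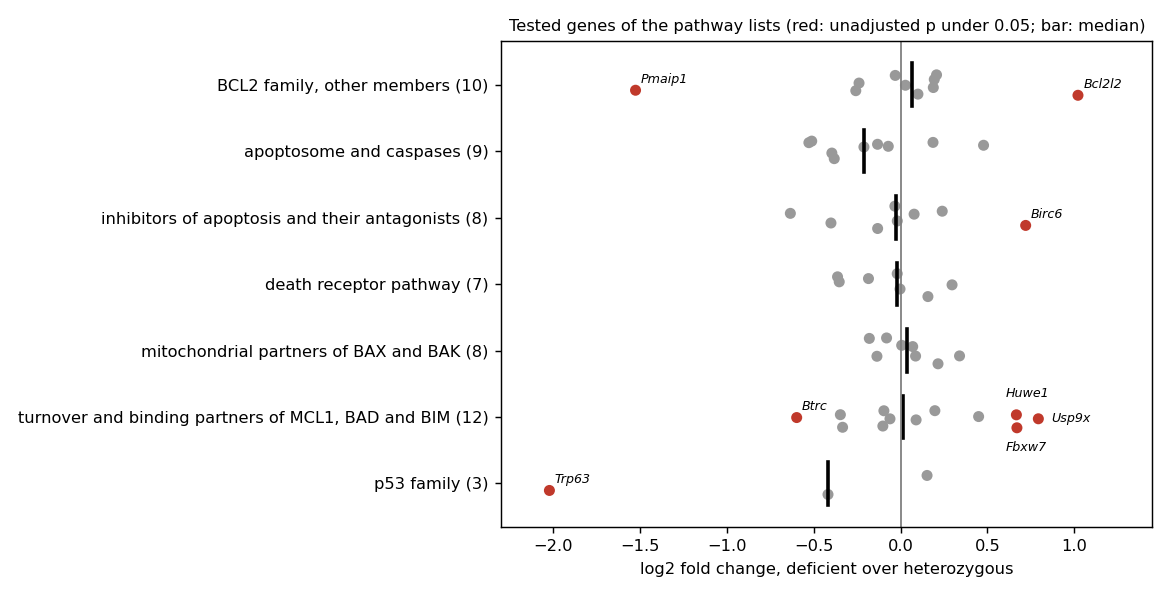
Log2 fold change, deficient over heterozygous, of each tested gene of the 7 pathway lists (points, with the number tested in brackets and random vertical scatter), with the list's median as a bar and genes with an unadjusted p under 0.05 in red and named. Medians lie between -0.21 and 0.06 except for the 3 genes of the p53 family, at -0.42. Without the 3 libraries high for alpha-globin (not drawn) the p53 family median was -0.09 and that of the other BCL2 family genes -0.13.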

How the data were processed

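Whole-number read counts for 55536 genes were deposited by the authors. The submitters' processing notes name Trim Galore 0.5.0, HISAT2 2.1.0 with GRCm38, and featureCounts from Subread 1.6.2, without the strand or multi-mapping settings, so values of overlapping, antisense and near-identical genes are uncertain. TPM deposited by the authors come from StringTie 1.3.3b. Per the file headers, a DESeq2 comparison deposited by the authors gives log2 fold changes and their errors, p-values with adjusted p-values, a Wald score and a normalized count signal averaged over libraries, and its direction was taken from Taf4b.

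Genotypes were compared in R 4.3.3 using edgeR 4.0.16 (quasi-likelihood, TMM, filterByExpr, 19244 genes) with Benjamini-Hochberg adjustment, and genes under 0.05 were called. A prior count of 2 was used for log2 CPM. Each SE is the absolute log2 fold change divided by the root of F. Alternatives were DESeq2 1.42.0, limma 3.58.1 (voom, or TPM with a pseudocount of 1 or 0.1), other scalings and filters, covariates (litter date, replicate number, or a 3-level grouping solved from the deposited fold changes, whose DESeq2 refit differed by at most 0.00555) and libraries left out. The members and gene lists were chosen with earlier results of these data known. The text names Taf4b, all members, the most abundant and the lowest-p tested gene of each pathway list, and the 3 genes nearest to each of the 2 most variable members. Outside this rule, Bcl2l2, Bbc3, Bik, Usp9x, Fbxw7 and Btrc, with Fas, Fasl and Hrk as untested genes, were named after their values were seen. The fit was tested on simulated data.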

Additional observations from a re-analysis of the deposited data

Results flagged for a closer look

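Over 56 groups of 5 libraries, 3 had a library whose gap to the nearest other library, divided by the range of the group, was above the critical value of 0.71. Chance flags about 1 in 20 such groups, and the groups share libraries. Trp53 in deficient 5 had a ratio of 0.929, at 23.8 CPM against 12.7 to 13.3 CPM in the other deficient libraries. Bok in heterozygous 3 had a ratio of 0.841, at 0.692 CPM against 1.63 to 1.91 CPM in the other heterozygous libraries, and rests on 16 counts. Birc6 in deficient 5 had a ratio of 0.720, at 103 CPM against 155 to 182 CPM in the other deficient libraries.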

How the results depend on the processing

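The number of members called was 0 in each alternative except without heterozygous 1, so that it ran from 0 to 1 when single libraries were left out. The number of all genes called was 251 without a low-count filter, 679 with DESeq2, 510 with limma voom, 104 with the grouping behind the deposited table and 1 with the replicate block, and it ran from 0 to 606 when single libraries were left out, with 606 without heterozygous 1 and 1 without heterozygous 2. Replicate numbers do not pair the libraries, since they share a litter date for 3 of 5 numbers and their deviations from the group means correlated from -0.26 to 0.59, and the block called no member. Mcl1, Bax, Bid and Bad kept their direction in all 24 alternatives, with log2 fold changes from 0.07 to 1.53, -1.08 to -0.21, -0.59 to -0.24 and -0.65 to -0.25. Direction turned for the following genes, and the cause was not tested. With litter date in the model the log2 fold change was 0.034 for Bcl2l1, 0.00060 for Bok and 0.069 for Bcl2l11. With the deposited grouping it was 0.21 for Bcl2, 0.0018 for Bok and 0.023 for Birc5, and with limma voom 0.061 for Bcl2l1 and 0.050 for Bcl2l11. Without the first litter date it was 0.20 for Bcl2l11 and 0.019 for Dynll1, without the second 0.024 for Birc5, and without the third 0.027 for Bok, 0.18 for Bmf and -0.076 for Vdac3. Without the 3 libraries high for alpha-globin it was 0.40 for Bcl2, 0.23 for Bmf and -0.17 for Vdac3. Without single libraries it ran from -0.20 to 0.17 for Bcl2l1, -0.24 to 0.090 for Bok, -0.22 to 0.11 for Bcl2l11, -0.13 to 0.063 for Birc5, -0.060 to 0.32 for Vdac3 and -0.19 to 0.030 for Dynll1. The role sums and the ratio of Bax to Bcl2 moved by less than 1 SD between libraries in each of 14 alternatives, but for the effector sum that SD includes the 3 libraries high for alpha-globin, without which its log2 difference was -0.23, against -0.70 with all libraries. Bak1 and Bok are limited by depth.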
